A study of Mus musculus with 2 samples.

Results

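Bone marrow cells that held transcripts of basophil and mast cell genes were described in the single-cell RNA-seq data of lineage-depleted, Kit+ and Sca-1+ (LSK) haematopoietic progenitors from Trmt6 WT and Trmt6 cKO mice. A cell was gated when it had 1 or more UMI (a counted RNA molecule) in at least 3 of 8 genes, Cpa3, Mcpt8, Ms4a2, Fcer1a, Prss34, Hdc, Cma1 and Gzmb, and no UMI of the NK cell genes Ncr1 and Klrd1. The gate was applied to barcodes with over 200 genes and under 10% mitochondrial UMIs. It took 187 of 18031 cells, 126 of 8815 in the WT library and 61 of 9216 in the cKO library. The cells were thus selected on the UMIs of these 8 genes, whose levels, and the sets of cells split by them below, are given as a description with no test. Only 61 cells passed in the cKO library, and only 6 WT cells had 5 or more of the 8 genes, so several WT values below rest on 4 or 6 cells.

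Basophils and mast cells are granulocytes of allergic and antiparasite responses. They arise in the bone marrow from progenitors that express GATA factors and share the high-affinity IgE receptor, whose alpha and beta chains are encoded by Fcer1a and Ms4a2. They store histamine, made by the enzyme of Hdc, with proteases bound to proteoglycan in their granules. In mice Mcpt8 and Prss34 encode proteases typical of basophils, Cma1, Mcpt4 and Tpsb2 encode a chymase, a second chymase and a tryptase typical of connective tissue mast cells, and Cpa3 encodes the carboxypeptidase found in both lineages. Gzmb encodes a granzyme best known from cytotoxic lymphocytes.

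One library per genotype was made, from mice of 3 months of age. The WT library carries the label genotype Trmt6fl/fl. The cKO library carries Trmt6fl/fl, MX1-cre, in which Cre follows the interferon-inducible Mx1 promoter and acts in haematopoietic and other interferon-responsive cells after pIpC injection. The text of the study describes the WT mice as Trmt6+/+ Mx1-Cre, while the WT label gives floxed alleles and lists no Cre, and how many mice were pooled in a library is not given in the sources used here. After lineage depletion the cells were sorted with antibodies to Kit, Sca-1 and Flt3. With 1 library per genotype, genotype and library cannot be told apart, no test across samples was possible, and every interval below is a 95% interval that covers counting error only. A level is given as CPM (counts per 1000000), the UMIs of a gene summed over a set of cells and scaled to the UMIs of that set.

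The cKO library was the deeper one, with 98323201 UMIs in 9260 barcodes against 47991455 UMIs in 8869 barcodes. The median cell that passed the filters held 10305.5 UMIs in the cKO library and 4344 in the WT library. Among gated cells the order was the other way round, with a median of 6999 UMIs in 61 cKO cells and 11087 in 126 WT cells. The libraries shared 24 barcodes, of which 0 belonged to a gated cell. The reagent kit is given as v2 in the labels and as v3 in the methods of the study. Trmt6, the targeted gene and the non-catalytic subunit of the tRNA m1A methyltransferase, was counted at 76.6 CPM (63.1 to 92.1) in WT gated cells and 65.3 CPM (45.5 to 90.8) in cKO gated cells, a log2 ratio of -0.22 (-0.82 to 0.33). These libraries count transcript 3′ ends, so that level does not show whether the floxed part was present. Trmt61a, the catalytic subunit, was counted at 21.7 CPM in WT gated cells and 14.9 CPM in cKO gated cells, and at 16.4 and 32.8 CPM in all other cells. The cKO gated cells summed to 536183 UMIs, so their Trmt61a level rests on few UMIs and no direction is read from it.

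The 2 libraries passed the gate in different ways. In the WT library 110 of 126 gated cells (87.3%) had exactly 3 of the 8 genes, and 84 of them had the same 3, Cpa3, Mcpt8 and Hdc. In the cKO library 32 of 61 (52.5%) had exactly 3, and 16 of these had that combination. The gated share was 1.43% (1.19 to 1.70) in WT and 0.662% (0.507 to 0.849) in cKO cells. At 5 or more genes the order was reversed, with 6 WT cells, 0.0681% (0.025 to 0.148), and 25 cKO cells, 0.271% (0.176 to 0.40). After random thinning of each cell to 2000 UMIs, with 205 shallower WT cells and 114 shallower cKO cells dropped, the shares at 3 or more genes were 0.244% (0.151 to 0.373) and 0.209% (0.126 to 0.326). Of the cells left out, 0 WT and 11 cKO cells had been gated. The median gated cell held 8 UMIs of the 8 genes together in WT and 15 in cKO. Just outside the gate, 534 WT and 74 cKO cells had 2 of the 8 genes, with a median of 3 UMIs in both libraries.

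**Figure D1:**
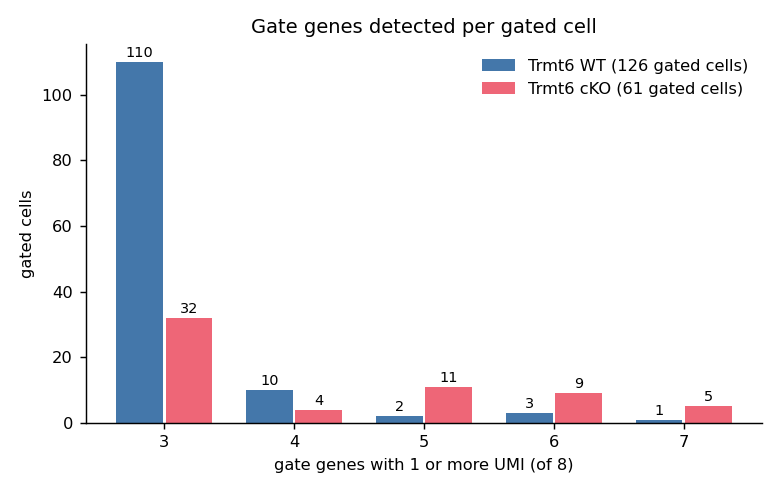
Number of gated cells (vertical axis) by the number of the 8 gate genes with at least 1 UMI (horizontal axis), in the WT library (blue) and the cKO library (red). The WT cells stand mostly at 3 genes (110 of 126), while 25 of 61 cKO cells have 5 or more.

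Nearly all WT gated cells also had UMIs of neutrophil-granule genes, so the label of basophil or mast cell progenitor is not used for the set. At least 3 of the neutrophil-granule genes Mpo, Elane, Prtn3, Ctsg and Ms4a3 were detected in 122 of 126 WT gated cells (96.8%) and in 24 of 61 cKO gated cells (39.3%), against 57.8% and 9.92% of the other cells of each library. The 122 included the 4 WT cells with 10 or more Prss34 UMIs, and the WT gated cells were read at a median of 11087 UMIs beside 4344 for all WT cells. For this count 1 UMI of each of 3 genes was enough. The amounts varied, with 0 to 438 UMIs of Mpo and 0 to 539 of Elane per WT gated cell. The WT gated cells held 8158 CPM of Mpo, the myeloperoxidase gene, against 2120 CPM in other WT cells. Elane, neutrophil elastase, stood at 8117 CPM against 1640.5 CPM. They are called gated cells below. Marked doublets were 17 of 126 WT and 6 of 61 cKO gated cells, beside 7.09% and 7.41% of all barcodes.

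The gate genes themselves differed in level and in spread between libraries. Cpa3 was detected in 121 of 126 WT and 57 of 61 cKO gated cells, at 402 and 830 CPM. Mcpt8 was detected in 104 and 46 cells, at 1037 and 1703 CPM, and 36.9% of the WT Mcpt8 UMIs came from 1 cell. Hdc was detected in 115 and 40 cells, at 234 and 121 CPM. Fcer1a was detected in 21 and 35 cells, at 71.9 and 569 CPM, and Ms4a2 in 32 and 29 cells, at 62.4 and 142 CPM. Prss34 was detected in only 9 WT and 16 cKO cells, yet stood highest in CPM, at 1338.5 and 5410.5. Gzmb was detected in 3 WT and 15 cKO cells, at 2.71 and 110 CPM. Cma1 had 0 UMIs in all 8815 WT cells and was detected in 18 cKO gated cells, at 1658 CPM. These 18 cells held 96.7% of the Cma1 UMIs of the cKO library, and gated cells held 96.1% and 97.8% of the Prss34 UMIs of the WT and cKO libraries.

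Gate genes were also read in lymphoid-gated cells, those with at least 2 of 8 lymphoid genes, as a guide to free RNA. In each library 1 of them was itself a gated cell. Their medians were 5064 UMIs (80 WT cells) and 7975.5 UMIs (280 cKO cells). The 2 sets were unlike. A lymphoid and B cell list summed to 3040 CPM in WT and 15599 CPM in cKO, and an azurophil granule list to 3430 and 1054 CPM. Whether their gate gene UMIs were free RNA or the cells' own was not tested. Among lymphoid-gated cells Cpa3 was detected in 12.5% of WT cells and 0 of 280 cKO cells (upper limit 1.31%), and Mcpt8 in 12.5% and 7.5%. Hdc was detected in 7.5% and 2.86%. These are the 3 genes that were the only gate genes of 84 WT gated cells. Gated WT cells were deeper, at a median of 11087 UMIs. Ms4a2, Fcer1a and Gzmb had no UMI in the lymphoid-gated cells of either library. Cma1 was detected in 0.714% of lymphoid-gated cKO cells and Prss34 in 1.25% and 0.714%.

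High counts of Cma1 and of Prss34 lay in separate cells. After these values were seen, gated cells were split into Cma1 cells (1 or more Cma1 UMI), Prss34-high cells (10 or more Prss34 UMIs, no Cma1) and the remaining gated cells. There were 0 WT Cma1 cells (upper limit 0.0418%) and 18 cKO Cma1 cells, 0.195% (0.116 to 0.309) of the library. Prss34-high cells numbered 4 in WT, 0.0454% (0.0124 to 0.116), and 11 in cKO, 0.119% (0.0596 to 0.214). The remaining gated cells were 122 in WT and 32 in cKO. Median UMIs were 1906 in Cma1 cells, 5341 in cKO and 10068 in WT Prss34-high cells, and 13191.5 and 11154.5 in the remaining cKO and WT cells. Marked doublets were 2 of 18 Cma1 cells, 1 of 11 cKO Prss34-high cells and 2 of 4 WT Prss34-high cells. Outside the gate, 21 cKO cells had a Cma1 UMI, with at most 10 in a cell, and no cell of either library had more than 1 Prss34 UMI.

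**Figure D2:**
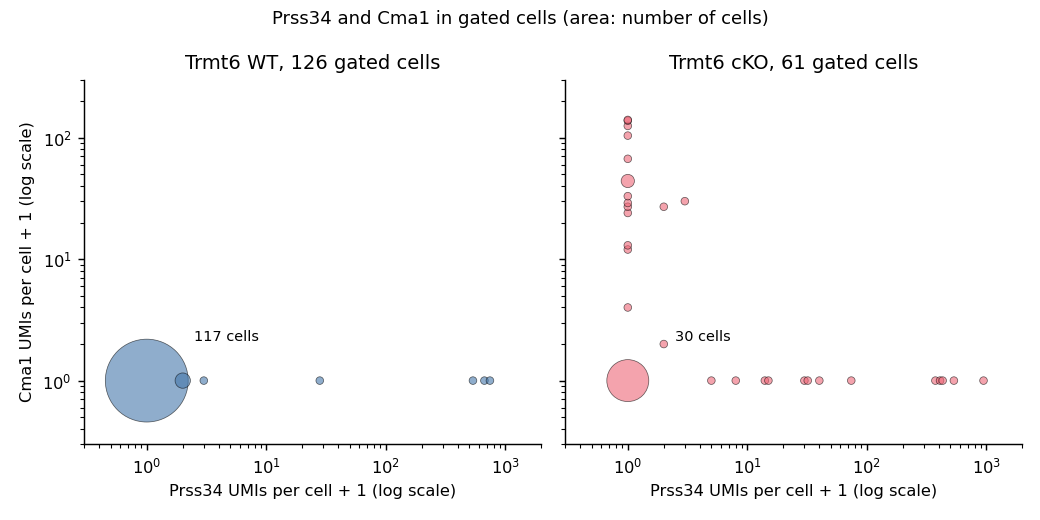
UMIs of Prss34 (horizontal, plus 1, log scale) and of Cma1 (vertical, plus 1, log scale) in each gated cell of the WT library (left) and the cKO library (right), with point area proportional to the number of cells at that place. Cells with high Cma1 lie along the left edge of the cKO panel and cells with high Prss34 along the lower edge of both panels, and 117 WT and 30 cKO cells have neither gene.

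Many protease genes of mast cells and basophils lie in 2 clusters. Cma1, Mcpt1, Mcpt2, Mcpt4, Mcpt8, Ctsg and Gzmb lie together at chr14:55941451-56262260 (GRCm38), and Prss34, Tpsab1 and Tpsb2 lie on chromosome 17, with Prss34 on the plus strand at chr17:25298394-25300165 and Tpsb2 on the plus strand at chr17:25366305-25369098. Cma1 (ENSMUSG00000022225) is on the minus strand at chr14:55941451-55944675, Mcpt4 (ENSMUSG00000061068) on the minus strand at chr14:56059629-56062313, and Mcpt8 (ENSMUSG00000022157) on the minus strand at chr14:56082166-56085273. Genes of these clusters resemble each other in sequence, so reads that fit more than 1 of them may have been lost or split in counting. The RefSeq promoter windows (GRCm38.p6, 250 bases before to 50 after the gene start, sense strand) of 4 proteases are shown, Cma1 and Mcpt4 because they were counted in 1 set of gated cells, Prss34 because it was highest in the other, and Mcpt8 because both sets held it. Capitals mark GATAA or its reverse complement TTATC, the core of the GATA factor motif, found on either strand of 25.4% of the 32851 windows of 300 bases in the RefSeq table. Windows are Cma1 at chr14:55944626-55944925, Mcpt4 at chr14:56062261-56062560, Mcpt8 at chr14:56085148-56085447 (all minus strand) and Prss34 at chr17:25298144-25298443 (plus strand).
Cma1: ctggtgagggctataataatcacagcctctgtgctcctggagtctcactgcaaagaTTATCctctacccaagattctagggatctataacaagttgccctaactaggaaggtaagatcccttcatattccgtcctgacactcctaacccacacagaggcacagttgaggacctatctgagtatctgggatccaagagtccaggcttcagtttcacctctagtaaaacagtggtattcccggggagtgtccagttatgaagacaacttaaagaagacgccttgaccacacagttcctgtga
Mcpt4: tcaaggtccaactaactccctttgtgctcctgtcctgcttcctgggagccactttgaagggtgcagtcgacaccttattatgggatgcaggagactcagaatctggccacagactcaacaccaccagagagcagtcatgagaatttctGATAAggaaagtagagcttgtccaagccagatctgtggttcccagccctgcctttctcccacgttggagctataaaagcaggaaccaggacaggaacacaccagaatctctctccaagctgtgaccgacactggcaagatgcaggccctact
Mcpt8: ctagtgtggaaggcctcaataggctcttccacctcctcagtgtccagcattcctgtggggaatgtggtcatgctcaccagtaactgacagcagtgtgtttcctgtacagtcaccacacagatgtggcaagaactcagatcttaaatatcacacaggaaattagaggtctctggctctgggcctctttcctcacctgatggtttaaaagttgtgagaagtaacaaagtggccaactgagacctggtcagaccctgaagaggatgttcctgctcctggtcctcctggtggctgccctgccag
Prss34: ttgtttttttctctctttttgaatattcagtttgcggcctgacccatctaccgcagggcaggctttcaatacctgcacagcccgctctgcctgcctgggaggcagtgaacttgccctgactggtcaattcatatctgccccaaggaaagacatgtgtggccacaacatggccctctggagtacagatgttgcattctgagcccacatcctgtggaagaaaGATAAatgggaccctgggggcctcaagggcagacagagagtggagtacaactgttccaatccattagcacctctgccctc
The Cma1 window held the motif once, as TTATC beginning 194 bases before the start, and the Mcpt4 window once, as GATAA 102 bases before it. The Prss34 window held GATAA once, 30 bases before the start, and the Mcpt8 window held 0 copies. Windows follow RefSeq starts. For Mcpt8 the start of the gene position given above, chr14:56085273, lies upstream of the RefSeq start and inside the window. A match is a description of letters. Tpsb2 is named only.

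The 18 Cma1 cells of the cKO library held between 1 and 139 Cma1 UMIs, with a median of 30.5, and 16 of them had 11 or more. Their Cma1 level was 15219 CPM. Tpsb2, a tryptase outside the gate, was detected in 14 of the 18 cells with 1 to 34 UMIs, at 2362.5 CPM (1985 to 2791), and had 0 UMIs in every other gated cell of both libraries. Outside the gate it had 12 UMIs in 6 cKO cells and 0 in WT cells. Mcpt4 was detected in 7 of the 18, with up to 15 UMIs, at 787.5 CPM, and had 0 UMIs in all other cells of both libraries. Of the other proteases in the list of 13, Ctsg was counted in both libraries. In cKO gated cells Tpsg1 had 6 UMIs, all in Cma1 cells, Prss28 and Cma2 had 2 each and Mcpt2 had 1, while these had 0 UMIs in WT gated cells. The last 6, Mcpt1, Mcpt9, Tpsab1, Prss29, Gzmc and Gzma, had 0 UMIs in gated cells of both libraries. Gzmb was detected in 13 of the 18 cells at 976 CPM and Cpa3 in 17 at 3732 CPM.

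The Cma1 cells were not alike. Mcpt8 was detected in 14 of them, and 3 cells held 50, 72 and 82 Mcpt8 UMIs beside 43, 32 and 124 Cma1 UMIs and 14, 5 and 10 Gzmb UMIs. Those 3 cells had no UMI of Tpsb2 or Mcpt4, at 5229, 3164 and 3490 UMIs in all. The 14 cells with Tpsb2 held 0 to 16 Mcpt8 UMIs, with a median of 3.5, and had a median of 1502.5 UMIs in all. The 3 cells without Tpsb2 were not the shallow ones. The fourth cell without Tpsb2 held 14695 UMIs, 1 of Cma1, 1 of Mcpt8 and 1 of Mpo. Only 3 Cma1 cells had a Prss34 UMI, with at most 2.

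Prss34-high cells were found in both libraries. The 4 WT cells held 27, 534, 666 and 741 Prss34 UMIs, with 97, 395, 221 and 564 of Mcpt8 and 11, 19, 22 and 10 of Fcer1a. The 11 cKO cells held 13 to 944 Prss34 UMIs, with a median of 73, 2 to 114 of Mcpt8 and 0 to 29 of Fcer1a. Prss34 reached 35882 CPM in the WT cells and 54656 CPM in the cKO cells, and Mcpt8 reached 23283 and 10643 CPM. Csrp3, a LIM domain gene outside the gate, was detected in 4 of 4 WT and 10 of 11 cKO cells, at 602 CPM (414 to 845) and 644 CPM (446 to 900), against 2.95 and 0.113 CPM in the other cells of each library. Alox5, which makes leukotrienes, stood at 273 and 246 CPM, against 1.76 and 1.03 CPM in other cells. Lmo4, a LIM-only cofactor, stood at 693 and 568 CPM.

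The Prss34-high cells of the 2 libraries differed in neutrophil-granule genes. Mpo was detected in 4 of 4 WT cells with 22, 40, 77 and 125 UMIs, at 4813.5 CPM (4250 to 5430), and in 4 of 11 cKO cells with at most 11 UMIs, at 360 CPM (217 to 562). Elane had 51 UMIs in 3 of 4 WT cells, 49 of them in the largest cell of 26193 UMIs, and 0 in cKO cells. Irf8, a monocyte and dendritic cell factor, had 16 UMIs, all in 1 WT cell, and 0 in cKO cells. Ccl3, a chemokine, was the other way round, at 128 CPM (51.3 to 263) in WT and 1875 CPM (1524 to 2283) in cKO cells, with UMIs in 3 of 4 and 10 of 11 cells. Cd200r3, an activating receptor of basophils and mast cells, stood at 91.2 CPM (29.6 to 213) and 758 CPM (541 to 1032). Since 2 of the 4 WT cells were marked as doublets, the part of a second cell in their Mpo UMIs was not tested.

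Within the cKO library the Cma1 and Prss34-high cells were compared at genes outside the gate, at 58413 and 52803 summed UMIs. Ccl2, a monocyte chemokine, had 92 UMIs in 15 of 18 Cma1 cells and 0 in 11 Prss34-high cells, at least 27.7-fold higher against a floor of 3 UMIs over the set. Hes1, a Notch target, had 39 UMIs in 9 cells, 18 of them in 1 cell, against 0, at least 11.75-fold higher. The same bound was 41.6-fold for Tpsb2, 13.9-fold for Mcpt4, 8.74-fold for S100a6 and 7.53-fold for Atp8b5. In the other direction Csrp3 had 0 against 34 UMIs, at least 12.5-fold lower in Cma1 cells, Ccl9 0 against 32 (11.8-fold) and Cyp4f18 0 against 23 (8.48-fold). Ccl3 had a log2 ratio of Cma1 over Prss34-high cells of -3.88 (-5.32 to -2.87), Anxa1, a gene of the annexin family, -5.66 (-11.56 to -3.71) and the Fc receptor gene Fcgr3 -3.71 (-7.12 to -2.02). Medians of UMIs per cell were 1906, with a lowest cell of 509, and 5341. Medians of genes per cell were 912.5 and 1945 and of the mitochondrial share 2.88% and 1.40%, beside 1.70% in the remaining cKO gated cells, and the part of these differences in the ratios was not tested.

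Some genes were shared by both sets. Fcer1g, the signalling chain of the IgE receptor, stood at 1181 CPM in Cma1 and 2102 CPM in cKO Prss34-high cells, against 86.4 CPM in other cKO cells. Cyp11a1, a steroid-synthesis enzyme known in mast cells and basophils, stood at 291 and 436 CPM against 0.819 CPM, Alox5 at 257 and 246 CPM, and Lilr4b, of the leukocyte immunoglobulin-like receptor family, at 223 and 189 CPM against 0.205 CPM. Gata2, a factor needed for both lineages, stood at 223 and 568 CPM against 55.6 CPM. Mitf, a factor of mast cells, had 1 UMI in Cma1 cells and 0 in Prss34-high cells. Il1rl1, the IL-33 receptor, stood at 171 CPM (82.1 to 315) and 37.9 CPM (4.59 to 137), which overlapped. Of the genes of the sort, Kit had 8 UMIs in 6 of 18 Cma1 cells and 0 UMIs in 11 Prss34-high cells, and Ly6a, which encodes Sca-1, had 7 and 0 UMIs. The floor of 3 UMIs over the 11 cells was 56.8 CPM, against 21.5 CPM of Kit and 142 CPM of Ly6a in other cKO cells, so a Kit level like that of the other cKO cells was not detectable at this depth, while the Ly6a level of the Prss34-high cells lay under that of the other cKO cells.

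**Figure D3:**
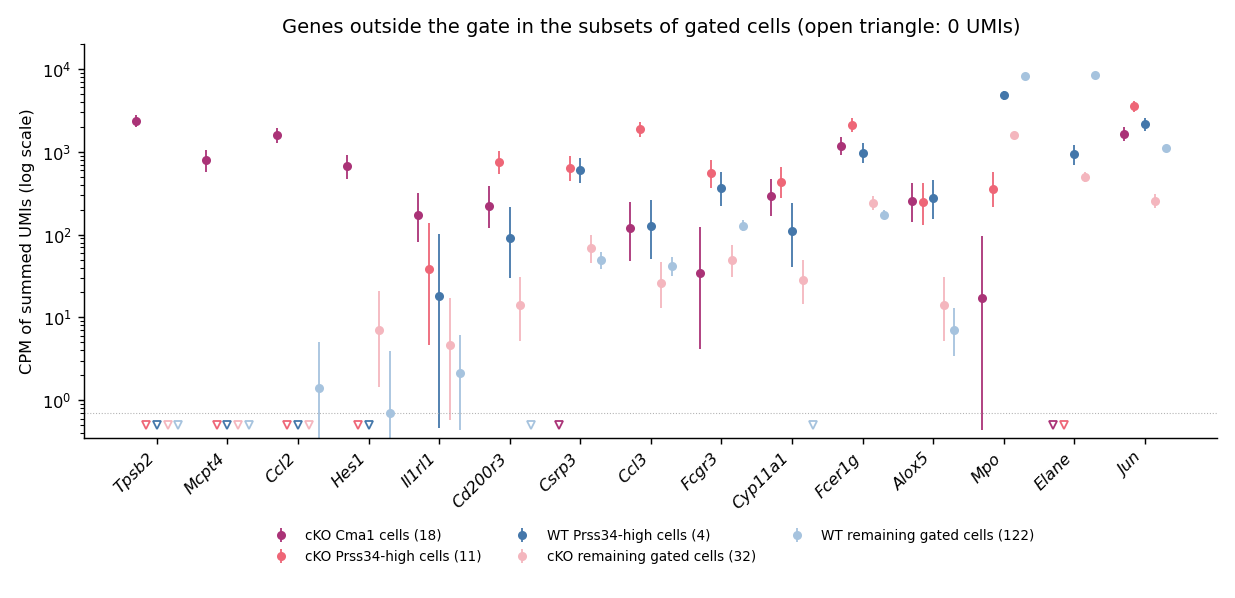
CPM of summed UMIs (log scale) of 15 genes outside the gate in 5 sets of gated cells, with the number of cells in the legend, bars for 95% counting intervals and open triangles for 0 UMIs. Among gated cells Tpsb2 and Mcpt4 have UMIs only in the 18 cKO Cma1 cells, Csrp3 has 0 UMIs there, and Mpo and Elane are highest in the 122 remaining WT gated cells.

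The remaining gated cells were the bulk of the WT set and, as a sum, held azurophil granule genes at high levels. The cells were mixed. Per WT cell, Mpo ranged from 0 to 438 UMIs (median 75) and Elane from 0 to 539 (median 48.5). Ms4a2 was detected in 28 of the 122 WT cells, Fcer1a in 17 and Csrp3 in 22. For example, 1 cell of 6930 UMIs held 15 of Cpa3, 6 of Ms4a2 and 6 of Csrp3, beside 3 of Mpo and 0 of Elane. In the 122 WT cells Mpo stood at 8288 CPM and Elane at 8395 CPM, beside 367 CPM of Cpa3, 178 CPM of Mcpt8 and 237 CPM of Hdc. Azurophil-gated cells, the 5022 WT cells outside the gate with at least 3 of the 5 neutrophil-granule genes, held 2927 CPM of Mpo and 2314 CPM of Elane, with 56.0 CPM of Cpa3, 78.0 of Mcpt8 and 22 of Hdc. The remaining WT gated cells thus stood above azurophil-gated cells in azurophil granule genes, summed at 26811 against 10259 CPM, and in the gate genes, which the gate itself selects. Their summed neutrophil list was lower, at 3487 against 4607 CPM, and 1 cell held 4209 of its 4951 UMIs. The other 121 cells stood at 528 CPM (491 to 567.5). Cebpe, a factor of late granulocyte maturation, was detected in 65 of the 122 cells at 206 CPM (183 to 231), against 31.2 CPM in azurophil-gated WT cells. Medians were 11154.5 UMIs in these gated cells and 5514 in azurophil-gated WT cells. In the 32 remaining cKO cells Mpo stood at 1574 CPM and Elane at 501 CPM, against 593 and 279 CPM in 908 azurophil-gated cKO cells. One cell held 142 of the 213 Elane and 223 of the 669 Mpo UMIs, and without it Elane stood at 176 CPM (137.5 to 222), under the azurophil-gated level, and Mpo at 1106 CPM. Gata2 stood at 148 CPM (114 to 190) against 42.2 CPM.

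Across the whole transcriptome, the UMIs of all gated cells of each library were summed and compared. Of 2967 genes outside the gate that reached 50 CPM in either library, 100 (3.37%) were over 2-fold higher and 93 (3.13%) over 2-fold lower in cKO gated cells, with a median log2 ratio of 0.0023 over all these genes. In the other cells of the libraries 73 of 2927 (2.49%) were over 2-fold higher and 129 (4.41%) over 2-fold lower. At 20 CPM, the level used for gene lists, the counts were 318 of 5531 (5.75%) higher and 233 (4.21%) lower in gated cells, and 132 of 5407 (2.44%) and 233 (4.31%) in other cells. These counts have no replicate behind them. Cma1 and Prss34-high cells made up 29 of 61 cKO but 4 of 126 WT gated cells, and at 50 CPM the counts were 102 higher and 89 lower without Cma1 cells and 90 and 94 also without Prss34-high cells.

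The highest ratios included genes whose cKO UMIs lay mostly in the Cma1 or the Prss34-high cells. Tpsb2 had 0 UMIs in WT and 138 in 14 cKO gated cells, at least 126.5-fold higher against a floor of 3 UMIs over the gated cells of the library, and Mcpt4 0 and 46, at least 42.2-fold. Ccl2 had 2 and 92 UMIs, a log2 ratio of 6.67 (5.09 to 10.05), Hes1 1 and 42 (6.28, 4.30 to 12.19), Atp8b5 1 and 27 (5.66), and Id2, an inhibitor of helix-loop-helix factors, 8 and 69 (4.49, 3.51 to 5.84). Of the 42 Hes1 UMIs, 18 lay in 1 cell. Cd200r3 had 5 UMIs in 2 WT cells and 59 in 26 cKO cells, a log2 ratio of 4.90 (3.72 to 6.70), and Cyp11a1 6 and 52 (4.47, 3.36 to 6.09). Of their cKO UMIs, 13 of Cd200r3 and 17 of Cyp11a1 lay in Cma1 cells and 40 and 23 in Prss34-high cells. In other cells the log2 ratio was -1.69 for Ccl2, -0.25 for Hes1 and 0.90 for Id2. Without the cells that held Cma1 or 10 or more Prss34 UMIs, Ccl2 had 2 WT and 0 cKO UMIs left and Id2 had 8 and 1, so both ratios rested on the Cma1 and Prss34-high cells. Cd200r3 and Cyp11a1 then had 0 WT UMIs and 6 and 12 cKO UMIs left.

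A second group of high ratios was shared with the other cells of the libraries. Trib3, a pseudokinase induced by ATF4, had 0 UMIs in WT and 49 in 19 cKO gated cells, at least 44.9-fold higher, with 2.17 and 159 CPM in other cells. Cox6a2, a cytochrome oxidase subunit, stood at 7.46 and 433 CPM in gated cells (log2 5.80, 4.99 to 6.88) and at 41.0 and 374 CPM in others (3.19). Nupr1, a stress-induced chromatin protein gene, had log2 ratios of 5.03 (3.75 to 7.12) and 4.0, and Atf5, a stress response factor, 4.27 (2.91 to 6.38) and 4.83.

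The lowest ratios were led by neutrophil genes whose WT UMIs lay mostly in 1 cell. S100a9, Ngp, Camp, Chil3 and the eosinophil granule gene Prg2 had 965, 832, 511, 85 and 360 UMIs in WT and 0 in cKO gated cells. In each of these genes 1 WT cell gave over 90% of the UMIs (91.3%, 93.3%, 92.8%, 94.1% and 97.8%). S100a8 (log2 -8.15) and Wfdc21 (-4.17) had 92.7% and 87.8% of their WT UMIs in 1 cell. Without likely doublets S100a9, Ngp, Camp and Chil3 had 26, 37, 21 and 2 WT UMIs left, S100a8 had 60 and Wfdc21 8, while Prg2 kept 360. Elane was lower at -4.35 (-4.56 to -4.16) with the WT UMIs spread over 108 cells, though 66.7% of the cKO UMIs came from 1 cell. Cebpe stood at 198 and 9.33 CPM (-4.27, -6.04 to -3.17) and was detected in 65 WT and 3 cKO cells, Wfdc17 at -3.64, Irf8 at 80.7 and 5.60 CPM (-3.63, -6.15 to -2.27), and Ly6c2 at -3.26 (-4.58 to -2.34). In other cells Cebpe, Irf8 and Ly6c2 had log2 ratios of -4.96, -3.88 and -4.60, so these genes were lower there too.

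Genes that marked gated cells from the rest of their library were ranked by the mean over libraries of the log2 ratio with 10 CPM added. Only genes at 50 CPM or more in gated cells of both libraries were ranked. Csrp3 led, at 2.62 in WT and 3.66 in cKO, though it was detected in only 26 of 126 WT and 17 of 61 cKO gated cells. It had 0 UMIs in Cma1 cells, and 34 of its 63 cKO UMIs lay in Prss34-high cells. Mpo (1.94 and 3.74), Fcgr3 (2.35 and 3.27), Ms4a3 (2.40 and 3.12) and Elane (2.30 and 3.04) followed. Lower ratios marked Ap3s1 (1.61 and 2.53), a subunit of an adaptor complex of lysosome-related organelles, Ctsg (1.73 and 2.40), the chemokine gene Ccl9 (0.30 and 3.47), Fam46a, Cst7, Prss57, Lmo4, Plac8, the metallothionein gene Mt1 and Fry. For Fry 84.0% of the WT and 87.2% of the cKO UMIs came from 1 cell. Among cKO gated cells 1 cell held 142 of the 213 Elane UMIs, and the Cma1 and Prss34-high cells held 0 UMIs of Elane and 17.1 and 360 CPM of Mpo.

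Other genes of the mast cell and basophil programme were taken by lists. A gene counted when it reached 20 CPM in gated cells of either library, so some entered only through the library where they were high. In the surface list Il1rl1 and Lilr4b entered through cKO alone. The counts and medians of all lists are thus partly set by this filter, which was not applied to levels in other cells. Over all 5531 genes at that level, 5.75% were over 2-fold higher and 4.21% lower. Of 12 surface genes at 20 CPM or more, 6 were over 2-fold higher and 0 lower in cKO gated cells (median log2 1.07), against a median of -0.79 and 0 higher and 4 lower for the same genes in other cells. Il1rl1 stood at 2.71 and 26.1 CPM (log2 3.15, 1.60 to 5.33) and Itgb7, an integrin of mast cell homing, at 11.5 and 69.0 CPM (2.56, 1.72 to 3.50). Lilr4b had 0 and 26 UMIs, at least 23.8-fold higher. Cd63, a granule membrane gene and the highest of the list, stood at 750 and 681 CPM (-0.14, -0.31 to 0.03). Without Cma1 and Prss34-high cells the list median was -0.36.

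Of 11 genes of IgE receptor signalling at that level, 4 were over 2-fold higher and 1 lower (median 0.30, and -0.58 in other cells). Fcer1g stood at 204 CPM (182 to 229) in WT and 528 CPM (468 to 593) in cKO gated cells (log2 1.37), and at 175 CPM (154 to 198) and 242 CPM (198 to 294) in the remaining gated cells of each library. The adaptor genes Lat and Lat2 had log2 ratios of 2.42 (1.79 to 3.11) and 1.54 (1.06 to 2.02). The summed list stood at 652 CPM (611 to 696) in remaining WT and 791 CPM (708 to 880) in remaining cKO gated cells. Plcg2, a phospholipase, had 38 and 6 UMIs (-1.11, -2.74 to 0.05). Among 13 cytokine receptor genes 2 were over 2-fold higher and 1 over 2-fold lower (median 0.53, and -0.54 in others). Csf2rb, the shared chain of the IL-3 receptor, stood at 29.2 and 67.1 CPM (1.21, 0.52 to 1.88), Il18rap at 2.03 and 26.1 CPM, and Ifngr1 at 206 and 101 CPM (-1.02, -1.48 to -0.61).

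Of 17 granule and lipid mediator genes 4 were over 2-fold higher and 3 lower (median 0.02, and -0.48 in others). Srgn, the core protein of the granule proteoglycan, was the highest, at 1679 and 1333.5 CPM (log2 -0.33, -0.45 to -0.21). Alox5 stood at 17.0 and 63.4 CPM (1.90, 1.12 to 2.71), Rab27b, a regulator of granule release, at 2.03 and 20.5 CPM (3.18, 1.41 to 5.82), and Lta4h, a leukotriene hydrolase, at 207 and 65.3 CPM (-1.65, -2.22 to -1.16). Only 3 of 13 further proteases reached the level, Tpsb2, Mcpt4 and Ctsg, and Ctsg stood at 3064 and 1555 CPM (-0.98, -1.09 to -0.87).

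Of 11 cytokine and chemokine genes 8 were over 2-fold higher and 0 lower in cKO gated cells, with a median of 2.02, while the same genes in other cells had a median of -0.87 with 1 higher and 5 lower. Without Cma1 and Prss34-high cells the median was 0.15 over 8 genes, and the summed list stood at 553 CPM (515 to 593) in remaining WT and 586 CPM (515 to 663) in remaining cKO gated cells. Ccl3 stood at 44.8 and 218 CPM in gated cells (log2 2.28, 1.84 to 2.74) and at 181 and 2.14 CPM in others (-6.40). Ccl4 went the same ways, at 75.3 and 213 CPM in gated and 192 and 10.3 CPM in other cells. Csf1, the macrophage growth factor, had 4 and 13 UMIs (3.04). Ccl5 had 59 and 11 UMIs (-0.91), the 11 of them in 1 cKO cell. Ccl9, the highest, stood at 202 and 186.5 CPM (-0.11, -0.46 to 0.22). Among cKO gated cells all 92 Ccl2 UMIs lay in Cma1 cells and 99 of 117 Ccl3 UMIs in Prss34-high cells, while the other cKO cells held 46 and 209 UMIs of these genes.

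Of 30 transcription factor genes 7 were over 2-fold higher and 2 lower (median 0.44, and -0.39 in others). Gata2 stood at 55.6 CPM (44.2 to 69.0) in WT and 198 CPM (162 to 239) in cKO gated cells (log2 1.83, 1.40 to 2.26), against 56.2 and 55.6 CPM in other cells. Gfi1b had 14 and 18 UMIs (1.81, 0.73 to 2.94), Klf1 8 and 11, Cebpa 35 and 23 (0.86, 0.03 to 1.65), and Lmo2, the highest, stood at 319 and 343 CPM (0.11). Gata2 was also higher in the remaining gated cells, at 50 CPM (39.1 to 63.1) in 122 WT cells and 148 CPM in 32 cKO cells.

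Genes of the ATF4 pathway, which the integrated stress response switches on when amino acids run short, were higher in cKO gated cells to about the extent seen elsewhere. Of 25 such genes 25 were higher and 18 over 2-fold higher in gated cells (median log2 1.54), against 24 higher and 21 over 2-fold in other cells (median 1.60). Asns, asparagine synthetase, stood at 17.0 and 194 CPM in gated cells (3.49, 2.88 to 4.21) and at 10.9 and 196 CPM in others. Phgdh, the first enzyme of serine synthesis and the highest of the list, stood at 258 and 401 CPM (0.64, 0.39 to 0.88), the amino acid transporter gene Slc7a3 had 0 and 12 UMIs (at least 11-fold), and Aars had the lowest ratio (0.31, -0.09 to 0.69). The summed level of the list was 1394 CPM in WT and 3517.5 CPM in cKO gated cells. By subset it was 2465 CPM (2079 to 2902) in Cma1 cells, 3807 CPM (3298 to 4371) in cKO Prss34-high cells and 3626 CPM (3447 to 3812) in the remaining cKO cells, against 1076 CPM (819 to 1388) in WT Prss34-high cells. Trib3 had 1 UMI in Cma1 cells, 17.1 CPM (0.433 to 95.4), against 101 CPM (73.2 to 136) in remaining cKO gated cells and 159 CPM in other cKO cells.

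Immediate early and NF-kB genes, the transcripts that cells make within minutes of stimulation, behaved otherwise. In the other cells 13 of 20 such genes were over 2-fold lower in cKO, with a median of -1.64, while in gated cells 3 were over 2-fold higher and 1 over 2-fold lower, with a median of 0.09 (-0.55 over 18 genes without Cma1 and Prss34-high cells). Jun, a subunit of AP-1 and the highest of the list, stood at 1159 and 727 CPM in gated cells (log2 -0.67, -0.83 to -0.51) against 1490 and 144 CPM in others (-3.37). Dusp1 had -1.05 (-1.47 to -0.67) in gated and -2.58 in other cells, and Zfp36l1 10 and 19 UMIs (2.35, 1.21 to 3.65). Within the cKO library Jun stood at 1643.5 CPM (1331 to 2007) in Cma1 cells and 3522.5 CPM (3034 to 4067) in Prss34-high cells, detected in 15 of 18 and 11 of 11 cells, and at 254 CPM (209 to 307) in the remaining gated cells. The summed level of the list was 7909 CPM in Cma1, 12424 CPM in Prss34-high and 2026 CPM in remaining cKO gated cells, against 1756 CPM in other cKO cells. In WT cells it was 8187 CPM in Prss34-high and 4389 CPM in remaining gated cells, against 6534 CPM in others. The cKO Cma1 and Prss34-high cells thus stood above the summed level in other WT cells, while remaining cKO gated cells stood near the other cKO cells.

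**Figure D4:**
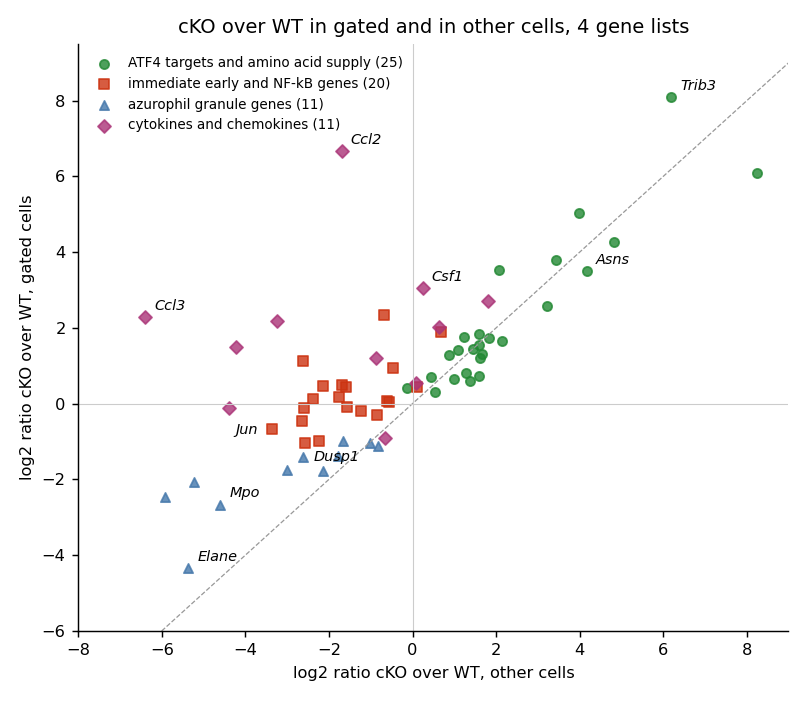
Log2 ratio of cKO over WT in gated cells (vertical) and in the other cells of the libraries (horizontal) for the genes of 4 lists at 20 CPM or more, with the line of equal ratios dashed and 0.5 counts added to each sum, which sets the place of genes with 0 UMIs such as Trib3. ATF4 genes lie near the line, Ccl2 and Ccl3 lie far above it, and the immediate early genes lie mostly to the left of 0 for other cells and around 0 for gated cells, as Jun at -3.37 and -0.67.

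Neutrophil-granule genes were lower in cKO gated cells as elsewhere, 10 of 11 over 2-fold (median -1.76, and 10 of 11 with -2.62 in others). Mpo stood at 8158 and 1285 CPM (log2 -2.67, -2.78 to -2.56), Nkg7 at -1.05 and Ctsg at -0.98. Of 9 neutrophil genes 7 were over 2-fold lower (median -5.96, and 8 of 9 with -9.94 in others), with Anxa1 at -0.40 (-0.70 to -0.12), Lcn2 at -0.79 and S100a9 at 0 UMIs in cKO. That median is the ratio of Chil3, and 1 WT cell held 4209 of the 4951 UMIs of this list in the remaining WT gated cells. Without likely doublets the median was -4.33, over the 5 genes left at that level. Both eosinophil genes at that level, Prg2 and Prg3, were over 2-fold lower, and 352 of the 360 WT UMIs of Prg2 lay in 1 cell. Of 9 monocyte and dendritic cell genes 4 were over 2-fold lower and 2 over 2-fold higher (median -0.51, and -1.19 in others). Lgals3 was higher (7 and 40 UMIs, 3.89), Ly86 had 36 and 0 UMIs (at least 4.36-fold lower), and Cst3, the highest, stood at -0.51.

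Growth and cell cycle lists had medians between -0.60 and 0.27 in gated cells. Of 32 MYC target and ribosome biogenesis genes 24 were higher and 2 over 2-fold higher (median 0.19, and 0.48 in others), with Npm1, the highest, at 0.31 (0.21 to 0.41) and Rrp12 at 2.07. By subset this list was lowest in Prss34-high cells, at 4943 CPM (4361 to 5580) in cKO and 6327 CPM (5679 to 7029) in WT, against 8953.5 CPM in Cma1 and 11872 CPM in remaining cKO cells. Of 25 S phase genes 1 was over 2-fold higher (median 0.27, and 0.05 in others), with Ung at 1.74 and Mcm6, the highest, at 0.27. Of 25 mitotic genes 24 were lower and 3 over 2-fold lower (median -0.60, and -0.49 in others), with Bub1 at -1.85 (-3.65 to -0.66), Birc5, the highest, at -0.53 and Bub1b at 0.04. The mitotic list stood at 1215.5 CPM (949 to 1533) in Cma1 cells, 2197 CPM (1815 to 2635) in cKO Prss34-high cells and 3719.5 CPM (3227 to 4266) in WT Prss34-high cells, and Mki67 had 1, 11 and 10 UMIs.

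Stress, survival and other lineage lists followed. Of 10 p53 target genes 3 were over 2-fold higher (median 0.73, and 1.17 in others), with Sesn2 at 3.78, Phlda3 at 3.04 and Bax, the highest, at 0.78 (0.45 to 1.10). None of 7 interferon response genes passed 2-fold in gated cells (median 0.52, and 0.08 in others), and Ifitm3 stood at 336 and 593 CPM (0.82, 0.61 to 1.03). Of 15 genes of the TRMT6 complex and upstream of mTORC1, 2 were over 2-fold higher, Ddit4 at 1.83 and Eif4ebp1 at 1.32 (median -0.07, and 0.05 in others). None of 7 BCL2 family genes passed 2-fold (median 0.08 in both). Of 8 stem cell genes 1 was over 2-fold higher, Ly6a, at 12.2 and 61.5 CPM (2.32, 1.46 to 3.25), with 34.9 and 142 CPM in others.

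Markers of other lineages were summed as well. The lymphoid and B cell list summed to 101 and 114 CPM in WT and cKO gated cells, against 367 and 611 CPM in other cells, with 8 and 7 of its 16 genes at 0. The erythroid list stood at 678 and 860 CPM (1131 and 1189 CPM in others), with Hbb-bt at 9.49 and 59.7 CPM (log2 2.62), and the megakaryocyte list at 198 and 287 CPM (383 and 227 CPM in others), with Itga2b at 31.2 and 74.6 CPM (1.26, 0.61 to 1.90) and Serpine2 at -1.60. Of the T and NK cell list 12 of 19 genes were at 0 in each library, and Nkg7, which granulocyte progenitors also express, made up most of its 1183 and 595 CPM, against 625 and 346 CPM in others. Whether cells of other lineages contributed to any ratio above was not tested.

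**Figure D5:**
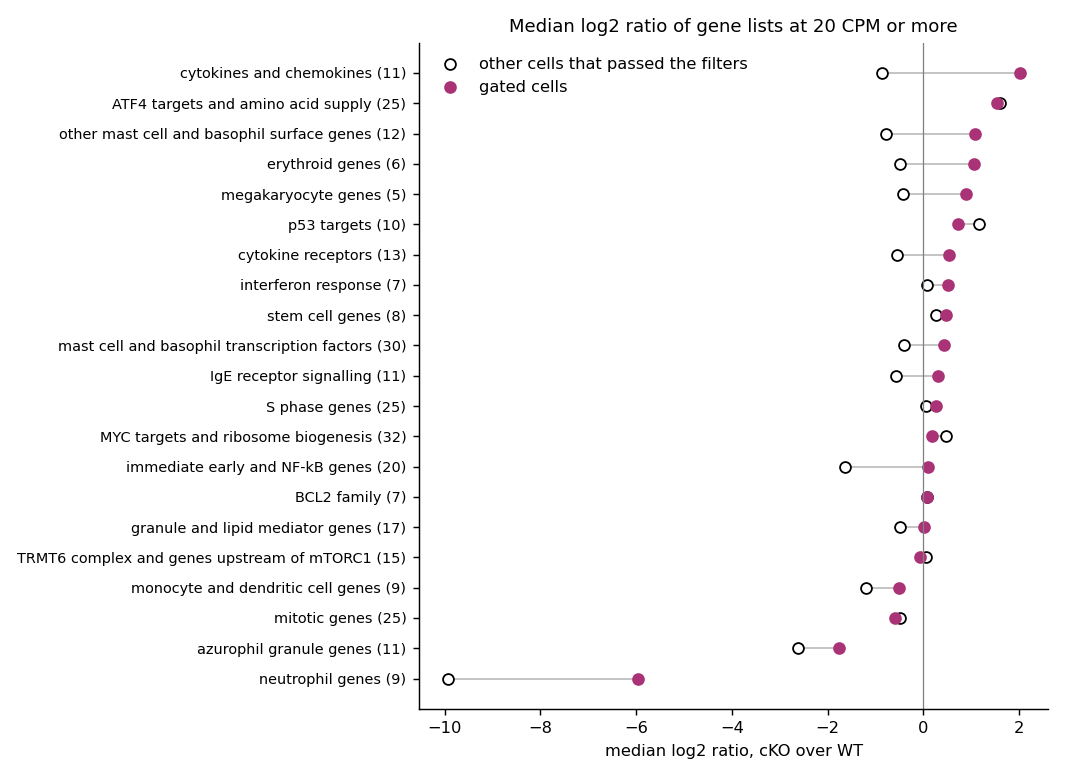
Median log2 ratio of cKO over WT for 21 gene lists with 5 or more genes at 20 CPM in a library (number in brackets), in gated cells (filled) and in the other cells of the libraries (open). The cytokine and surface gene lists stand above 0 in gated cells and below 0 in others, the immediate early list near 0 and at -1.64, and the ATF4 list at 1.54 and 1.60.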

How the data were processed

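The data were 2 droplet libraries of sorted bone marrow LSK cells, 1 Trmt6 WT and 1 Trmt6 cKO. The deposited counts are UMI counts per gene and barcode that the authors made with Cell Ranger (6.0.0 in the submitters' processing notes) on mm10, and barcodes were already called as cells. Cells were kept at over 200 genes and under 10% mitochondrial UMIs and gated as described in the report. The cells and all gene lists were chosen with earlier results of these data known. UMIs were summed over sets of cells and divided by the total of that set (CPM). Log2 ratios of cKO over WT had 0.5 counts added. Levels have exact Poisson intervals, ratios conditional binomial intervals and shares Clopper-Pearson intervals, all at 95% and for counting error only, with a floor of 3 counts where a library had 0. With 1 library per genotype no test was made.

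Genes named were the gate genes, Trmt6 and Trmt61a, and the 12 highest and 12 lowest ratios of genes that reached 50 CPM in either library. Also named were the 15 genes with the highest mean over libraries of the log2 ratio of gated over other cells (10 CPM added). These 15 were taken among genes at 50 CPM or more in gated cells of both libraries. In each list the genes with the highest level, the highest ratio and the lowest ratio were named, at 20 CPM or more in either library. The split into Cma1 cells, Prss34-high cells and remaining cells, the genes compared between these sets, and the other genes named were chosen after their values were seen. Doublets were marked, and kept, by the share of simulated doublets among 50 neighbours (20 components of 1500 genes) at 0.8% per 1000 barcodes. Gene positions are from GENCODE M21, which held 27645 of 27998 feature IDs. Python 3.11.15, numpy 2.4.6, scipy 1.17.1, scikit-learn 1.9.0 and matplotlib 3.10.9 were used, with edgeR 4.0.16 in R 4.3.3 for 1 scaling alternative (TMM). The ratio computation was tested on simulated data. Alternatives were other scalings, thinning, other gates, cell limits and doublet removal.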

Additional observations from a re-analysis of the deposited data

How the results depend on the processing

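No paired analysis was possible because each genotype had 1 library, and no replicate could be left out. The shares of gated cells depended on the gate. The WT share was 1.43% and became 0.244% with each cell thinned to 2000 UMIs, 0.182% at 4 or more gate genes and 0.0681% at 5 or more. The cKO share was 0.662% and became 0.209%, 0.315% and 0.271%, and 0.467% without Cma1 cells. The 100 genes over 2-fold higher and 93 over 2-fold lower in cKO became 264 and 165 with each cell scaled before averaging, 943 and 751 with thinning, 349 and 462 at 4 or more gate genes, 550 and 689 at 5 or more, and 318 and 233 at a minimum of 20 CPM, where 8 and 9 of the 12 named genes at each end remained. Thinning and narrower gates leave fewer UMIs. The share of genes higher in cKO was 50.2%, against 58.0% on totals without mitochondrial and ribosomal protein genes, where 126 were higher and 73 lower and the median log2 ratio of all genes was 0.0871. Ccl2 turned to -0.70 without Cma1 cells and to -0.58 also without Prss34-high cells, both from 2 WT and 0 cKO UMIs. Without both sets Id2 turned to -0.76 (8 and 1 UMIs) and the surface list to -0.36. At 4 or more gate genes Prss57 turned to 0.26 (4 UMIs in each library) and the erythroid list to -0.0565; the cause was not tested. Among values of single genes 401 lay within the counting interval of the reported ratio, 100 lay outside and 4 of ratios over 2-fold changed sign. Among list medians 272 lay within the median half-width of their genes' intervals, 20 outside and 2 changed sign. Of ratios up to 2-fold, 19 values of 7 genes and 20 of 8 lists changed sign as well. Fcgr3, at -0.49, was 0.43 with each cell scaled, 1.57 with thinning and 0.59 and 0.48 at 4 and 5 or more gate genes, and Csrp3, at 0.75, was -0.38 and -0.56 at 4 and 5 or more. The gate of 5 genes and the settings without Cma1 or Prss34-high cells were chosen after seeing the data. Depth limits the small sets, with 54846 UMIs in the 4 WT Prss34-high, 52803 in the 11 cKO Prss34-high and 58413 in the 18 Cma1 cells.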
